A study of Mus musculus with 9 samples.

Results

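Neurons that use GABA or glutamate can be recognised by the genes that make, pack and specify these transmitters, and 8 such genes were followed in E12.5 mouse retinas with 3 genotypes at Neurog2. They were chosen by name: Gad1, Gad2 and Slc32a1 for GABA, Slc17a6 for glutamate, and the transcription factor genes Dlx1, Dlx2, Sp8 and Sp9. The question was whether a knock-in at Neurog2 turns on a GABAergic programme in the retina. Of the 8 genes, 5 were listed in the table of mutant against heterozygote, among 12247 genes, and 4 in the table of knock-in against mutant, among 11989. Gad1, Slc32a1 and Sp9 were listed in neither table, and Slc17a6 was not listed in the second.

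GABA is made from glutamate by the glutamate decarboxylases, encoded by Gad1 and Gad2, and is loaded into vesicles by the transporter encoded by Slc32a1. In the forebrain, Dlx1 and Dlx2, which encode homeodomain factors, and Sp8 and Sp9, which encode zinc finger factors, are known for their roles in GABAergic interneurons. In the retina, GABA is the transmitter of many amacrine cells and of horizontal cells, while ganglion cells, the first neurons to form, are glutamatergic and load their vesicles with the transporter encoded by Slc17a6. Dlx1 and Dlx2 are also known for a role in ganglion cells.

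The samples were total RNA of GFP-positive optic cups, dissected in pairs, from CD-1 embryos, with 3 samples in each of 3 groups and no cell sort named. The heterozygotes (Neurog2GFP/+) carried GFP at one Neurog2 allele and the mutants (Neurog2GFP/GFP) at both. In knock-in embryos one Neurog2 allele held GFP and the other a knocked-in sequence, so that every group had a GFP allele and none was wild type. The files give 1 RPKM value per transcript and group (reads scaled by transcript length and by the number of mapped reads), with no value per sample. No spread can therefore be printed beside a level, the depth is unknown, and the error enters through the authors' own Cuffdiff test. A transcript is said to have risen or fallen where its q-value in the authors' deposited table was 0.05 or less. The smallest q-value was 0.0109 in the first table and 0.0104 in the second. It belongs to the smallest p-value, shared by 125 and 128 transcripts, so these q-values do not rank the genes that have them. The labels do not tell whether samples of a group are separate litters, so the test may measure technical spread alone.

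Neurog2 itself had 30.2 RPKM in heterozygotes and 36.2 RPKM in mutants (authors' deposited table, q = 0.993). In the second table it had 35.5 RPKM in mutants and 112 RPKM in the knock-in group (authors' deposited table, q = 0.0104). The deposited values do not tell coding from untranslated parts of the altered alleles, so they do not check the deletion. Since Neurog2 was not lower in mutants, the groups are called mutant-labelled and knock-in-labelled below. The sample titles carry the number 466 for heterozygote and mutant samples and 311 for knock-in samples; if it marks a batch, batch and knock-in cannot be told apart. Summed over its transcripts, the Y-linked gene Eif2s3y was at 21.9 RPKM in heterozygotes, listed at 0 in the mutant-labelled group of both tables, and at 28.6 RPKM in knock-in-labelled retinas. Xist, which is transcribed from the inactive X chromosome, had summed levels of 184 and 505 RPKM in the first table and 496 and 174 RPKM in the second. Kdm5d, also Y-linked, had summed levels of 12.8 and 0 RPKM in the first table and 0 and 19.3 RPKM in the second. Sex as read from these genes thus changed together with the mutant label in both comparisons, so sex and mutant label cannot be told apart. No transcript of these genes was called, and the part of these differences in the values below was not tested.

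**Figure D1:**
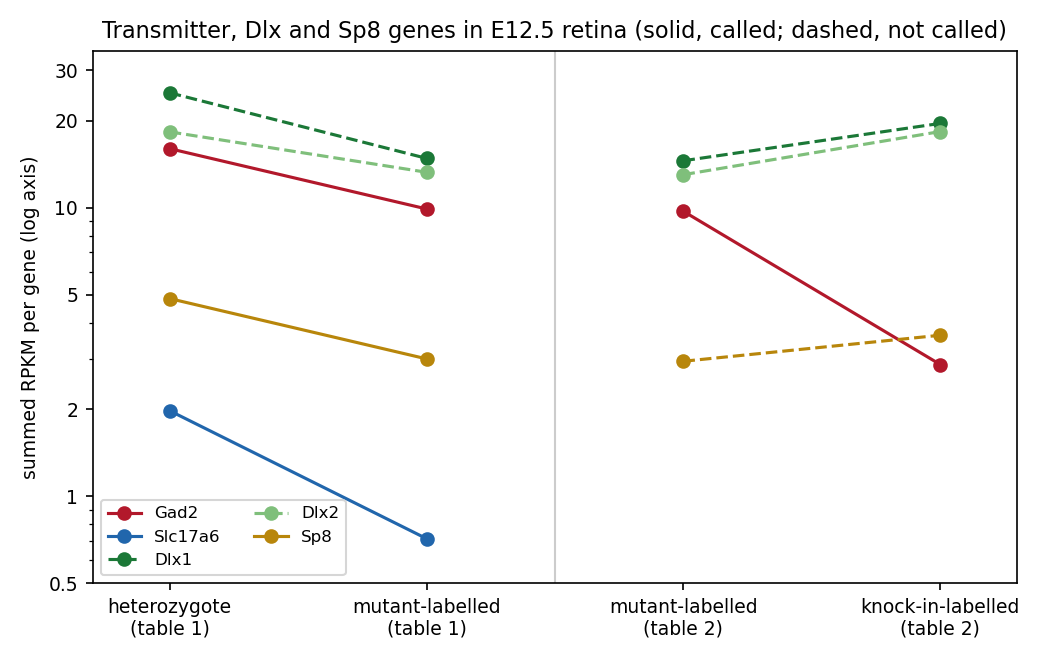
Summed RPKM per gene (log axis) of the 5 listed genes in the groups of each table, with 1 value per group and no error bars because no value per sample is given. Solid lines join groups between which the authors' test called a transcript and dashed lines those without a call. Gad2 goes from 16.0 to 9.91 RPKM and then from 9.72 to 2.86 RPKM, while Dlx1, Dlx2 and Sp8 are lower in the mutant-labelled group than in either other group.

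The bases before the start of 4 genes are shown because these are the 3 genes that were called and the one nearest to a call in the knock-in comparison, Dlx2. They are RefSeq sequence of GRCm38.p6, the mm10 assembly, 5′ to 3′ on the strand of the gene, and end at the base before the authors' locus. Capitals mark E-boxes, the word CANNTG to which basic helix-loop-helix factors such as the product of Neurog2 bind. The stretches are chr2:22622077-22622204 on the plus strand for Gad2, chr12:118846079-118846328 on the plus strand for Sp8, chr7:51621580-51621829 on the plus strand for Slc17a6, and chr2:71546755-71547004 on the minus strand for Dlx2.
Gad2: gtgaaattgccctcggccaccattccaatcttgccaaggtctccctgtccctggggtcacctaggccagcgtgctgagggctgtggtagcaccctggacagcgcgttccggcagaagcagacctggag
Sp8: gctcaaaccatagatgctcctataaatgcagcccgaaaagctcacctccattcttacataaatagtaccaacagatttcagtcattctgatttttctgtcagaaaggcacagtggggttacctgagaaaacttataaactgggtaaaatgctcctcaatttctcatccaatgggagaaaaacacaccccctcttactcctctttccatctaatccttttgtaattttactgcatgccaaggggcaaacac
Slc17a6: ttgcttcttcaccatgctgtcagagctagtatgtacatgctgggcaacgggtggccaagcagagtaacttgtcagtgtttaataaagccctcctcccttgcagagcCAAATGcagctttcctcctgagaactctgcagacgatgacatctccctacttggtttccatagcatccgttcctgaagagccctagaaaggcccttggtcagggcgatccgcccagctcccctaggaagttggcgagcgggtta
Dlx2: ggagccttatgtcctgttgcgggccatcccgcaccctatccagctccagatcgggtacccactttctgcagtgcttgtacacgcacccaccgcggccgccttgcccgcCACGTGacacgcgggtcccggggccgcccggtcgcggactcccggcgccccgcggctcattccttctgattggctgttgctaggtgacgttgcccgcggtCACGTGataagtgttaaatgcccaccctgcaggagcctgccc

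The stretch of Slc17a6 held 1 E-box and that of Dlx2 held 2, both CACGTG, while the 250 bases of Sp8 and the 128 bases of Gad2 held none. Of the 32851 RefSeq promoters, 66.2% had an E-box in the 250 bases before the start and 43.9% in the 128 bases that correspond to those of Gad2. The 250 bases before the most upstream RefSeq start of each of the 8 genes were searched on both strands. CAGCTG was in none (13.0% of all promoters) and CAGATG in Gad2 alone (14.4%), at position -76. The homeodomain word TAATTG was in Sp9 alone (7.17%). Sp8 has 3 RefSeq promoters and Slc17a6 has 2, and those further downstream were not searched. CAGCTG and CAGATG are themselves E-boxes. The E-box of Gad2 lies downstream of the start of the authors' locus and so outside the printed stretch. These matches describe letters and show no binding.

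In the mutant-labelled retinas, genes of both transmitters were lower than in the heterozygote. Gad2 (chromosome 2, 22622205 to 22693874, 16 exons in its longest GENCODE transcript) had 1 listed transcript, at 16.0 RPKM in heterozygotes and 9.91 RPKM in mutant-labelled retinas. It fell by 0.69 on the log2 scale (authors' deposited table, q = 0.0109). Slc17a6 (chromosome 7, 51621830 to 51671125, 12 exons) was at 1.98 and 0.713 RPKM and fell by 1.47 on the log2 scale (authors' deposited table, q = 0.0109), the largest difference among the 5 listed genes. Sp8 (chromosome 12, 118846329 to 118852578, 3 exons) was at 4.84 and 2.99 RPKM and fell by 0.69 (authors' deposited table, q = 0.0424). In bulk tissue, fewer cells of a type and less RNA per cell cannot be told apart.

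These 3 genes were the calls among the 5 listed, all lower; over all genes, 1.09% had a transcript called lower and 0.245% one called higher. Slc17a6 entered the table through its heterozygote value alone, since no row is under 0.906 RPKM in its higher group, and its mutant value lies under that limit, so the count of calls is a description. Of 12197 genes with a finite log2 ratio, 111 had a lower one than Slc17a6 and 585 a lower one than Gad2.

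Dlx1 and Dlx2 had lower values without passing the test. Dlx2 (chromosome 2, 71543408 to 71546754, 3 exons) was at 18.3 RPKM in heterozygotes and 13.3 RPKM in mutant-labelled retinas, a log2 ratio of -0.47 (authors' deposited table, q = 0.290). Dlx1 (chromosome 2, 71528113 to 71533981 in GENCODE, 3 exons) had 3 listed transcripts. The main one, 84.0% of the summed level in the heterozygote, was at 21.0 and 13.0 RPKM (authors' deposited table, q = 0.362). The others were at 2.98 and 1.35 RPKM and at 1.02 and 0.490 RPKM, and summed over the 3 the log2 ratio was -0.75. The direction was the same in every Dlx1 transcript, with q = 0.995 for each of the 2 minor ones (authors' deposited table). Levels of transcripts of a gene depend on how its reads were split, so the 3 are not independent. Dlx1 lies wholly inside the antisense gene Dlx1as, whose summed level was 17.8 and 16.2 RPKM, and the authors' locus (71453276 to 71537891) also holds Metap1d. No stranded counting is stated, so reads of Dlx1 and Dlx1as may not be fully separated.

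**Figure D2:**
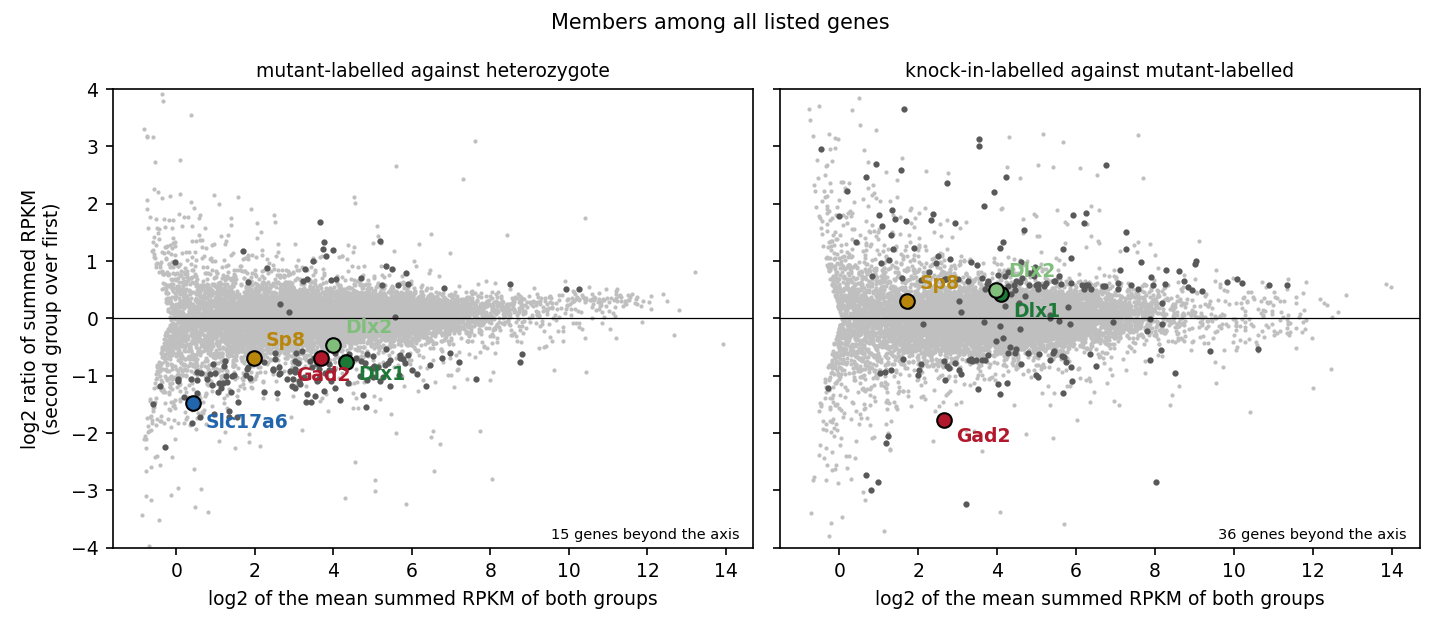
Log2 ratio of summed RPKM (second group over first) against the log2 of the mean level, 1 point per gene with a finite ratio, for each comparison; dark points have a called transcript and coloured points are the listed transmitter, Dlx and Sp8 genes. In the left panel all 5 lie below 0, from -0.47 for Dlx2 to -1.47 for Slc17a6; in the right panel Gad2 lies at -1.76 and the other 3 between 0.30 and 0.50.

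In the knock-in-labelled retinas, none of the listed genes was called higher and Gad2 was called lower. Gad2 was at 9.72 RPKM in mutant-labelled retinas and 2.86 RPKM in knock-in-labelled retinas, and fell by 1.76 on the log2 scale (authors' deposited table, q = 0.0104). Of 11930 genes with a finite ratio, 80 had a lower one. Over all genes, 0.634% had a transcript called lower and 1.03% one called higher, beside 1 and 0 of the 4 listed genes.

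Dlx2 was at 13.0 and 18.4 RPKM, a log2 ratio of 0.50 (authors' deposited table, q = 0.102). The main Dlx1 transcript was at 12.7 and 16.2 RPKM (authors' deposited table, q = 0.783), and its other transcripts were at 1.33 and 2.09 RPKM and at 0.480 and 1.27 RPKM. Summed, Dlx1 had a log2 ratio of 0.43, while Dlx1as was at 16.2 and 14.4 RPKM. Sp8 was at 2.94 and 3.62 RPKM, a log2 ratio of 0.30 (authors' deposited table, q = 0.783). The values of these 3 transcription factor genes were thus higher in the knock-in-labelled group, with no difference that passed the test.

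No row for Slc17a6 is in this table, in which the higher group of a row is never under 1.04 RPKM. No row of any name overlapped the annotated span of Gad1 (chromosome 2, 70553072 to 70602014) or Slc32a1 (158610767 to 158615748) in either table. The span of Sp9 (73271925 to 73284706) falls within a locus of the authors, 73271925 to 73337818, whose rows are named Cir1 and Scrn3. For Gad1, Slc32a1 and Sp9 no level or upper limit can be given. For Slc17a6 the mutant-labelled level is known from the first comparison alone (0.713 RPKM), and no knock-in-labelled level can be given.

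Set side by side, the order of levels was Dlx1, Dlx2, Gad2, Sp8 and Slc17a6 in the heterozygote and in the mutant-labelled group. In the knock-in-labelled group it was Dlx1 (19.6 RPKM), Dlx2, Sp8 and Gad2. Without values per sample, whether neighbours in these orders differ was not tested. Per unit length, Gad2 was 3.31 times the level of Sp8 in the heterozygote, 3.31 times in the mutant-labelled group and 0.792 times in the knock-in-labelled group. Across the tables, which were normalized separately and share the mutant samples, the log2 ratio of the knock-in-labelled group to the heterozygote was -2.48 for Gad2, -0.35 for Dlx1, 0.0034 for Dlx2 and -0.42 for Sp8. No deposited test covers that pair of groups.

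Of 11848 genes listed in both tables, 2 were called lower in each, Gad2 and Hspa1a, a heat shock gene at 7.14 and 3.81 RPKM in the first table and 3.74 and 0.835 RPKM in the second. The genes whose pair of log2 ratios lay closest to that of Gad2, among 10215 compared over 3 groups, were Fxyd3 (distance 0.096), Eml6 (0.27), Tmem163 (0.35), Hspa1b (0.37) and Mtus2 (0.39). Of these, Hspa1b was called in the second comparison and none in the first. In the second table Fxyd3, Eml6, Hspa1b and Mtus2 had knock-in-labelled values of 0.407, 0.893, 0.905 and 0.493 RPKM. These values, and that of Hspa1a, are under its limit of 1.04 RPKM, so these genes were listed through the mutant-labelled value alone. Reads of Hspa1a and Hspa1b, near-identical genes, may not be separated.

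Apart from Gad2, no listed gene for the handling of GABA was called. Of 8 genes for GABA synthesis, packaging, uptake and breakdown, 5 were listed in each table, and Gad2 was the one call in each. The list's median log2 ratio was -0.061 in the first table and -0.087 in the other, beside 0.031 and -0.0021 over all genes. For the 4 listed genes other than Gad2 the medians were 0.12 and -0.036. Abat, the transaminase that breaks GABA down, was at 35.2 and 33.1 RPKM and then at 32.5 and 35.5 RPKM. Of 20 genes for GABA receptors and their anchors, 9 were listed in each table and none was called (medians -0.13 and 0.20). The most abundant were Gabarap and Gabarapl2, which belong to a family also known for autophagy, with Gabarap at 120 and 109 RPKM in the first table. Of 7 genes for glycine and acetylcholine, Shmt2 and Slc6a9 were listed and neither was called (medians 0.34 and -0.19).

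Among 12 genes for glutamate packaging, uptake and metabolism, 9 were listed in the first table, where Slc17a6 fell and Slc1a3, a glutamate transporter of glia and progenitors, rose from 6.93 to 12.6 RPKM (authors' deposited table, q = 0.0109). For knock-in against mutant, 8 were listed and Slc1a2, a related transporter, rose from 1.55 to 3.56 RPKM (authors' deposited table, q = 0.0104). The medians were 0.0040 and -0.033. Of 22 glutamate receptor genes 7 were listed in the first table, and Grin2c, an NMDA receptor subunit, fell from 1.90 to 0.991 RPKM (authors' deposited table, q = 0.0367; list median -0.62). For knock-in against mutant, 5 were listed and none was called (median -0.027).

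**Figure D3:**
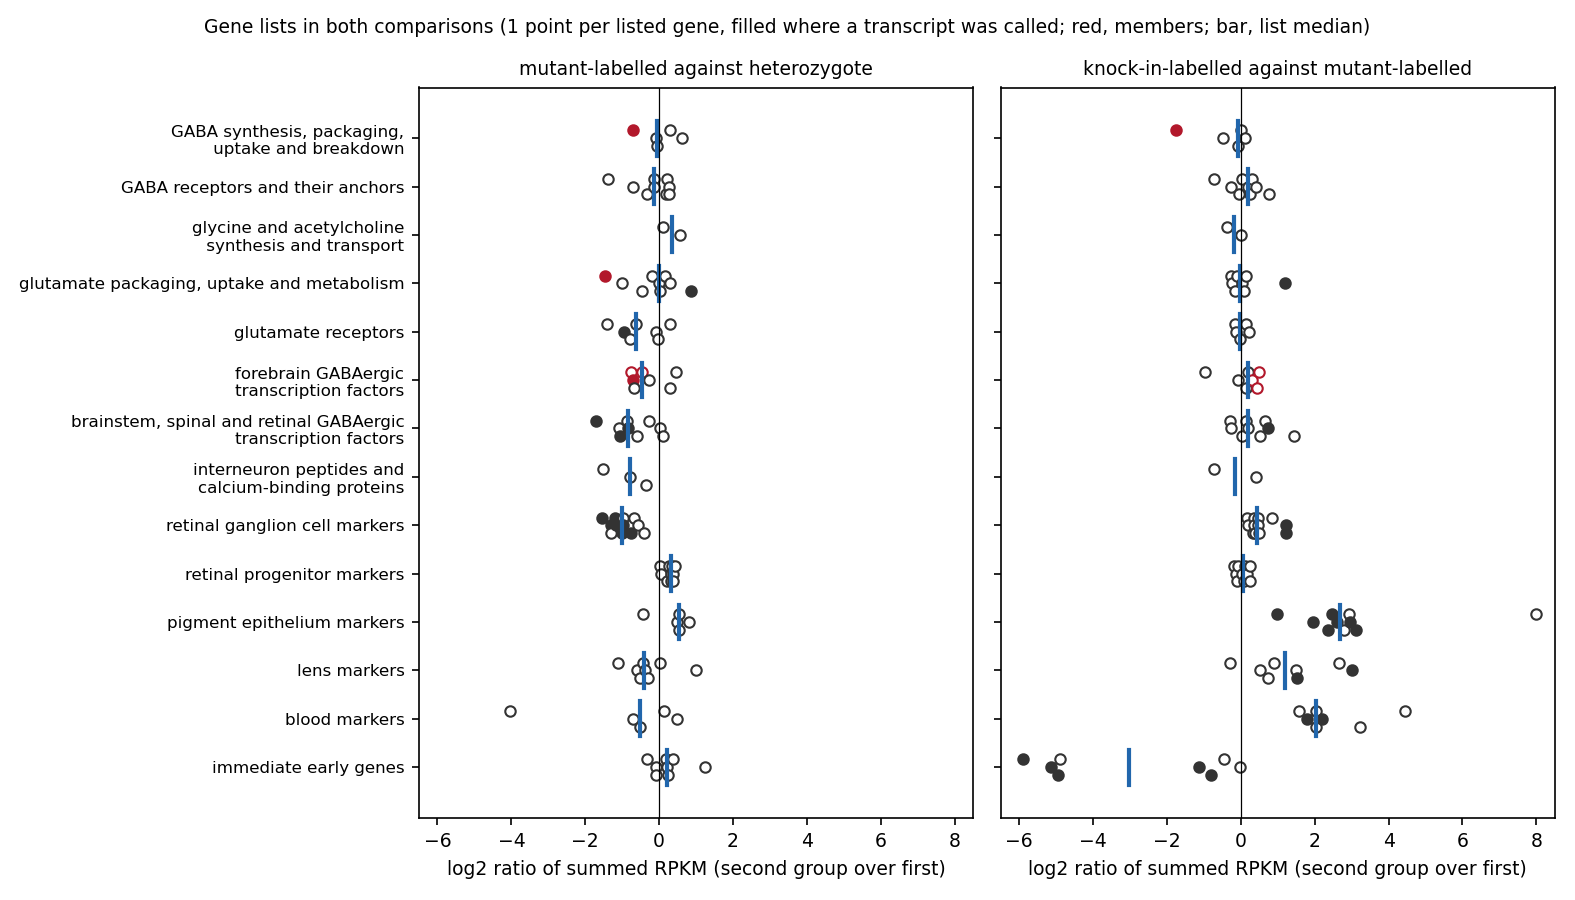
Log2 ratio of summed RPKM (second group over first) for each listed gene with a finite ratio, by gene list, in both comparisons; filled points have a called transcript, red marks the 8 genes followed here, and bars are list medians. Gad2 stands at -0.69 and -1.76 in a list whose other members lie between -0.47 and 0.63, and the forebrain markers are absent because none was listed.

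Of 18 transcription factors of forebrain GABAergic neurons, 7 were listed in each table. Sp8 was the one call in the first and there was no call in the second (medians -0.47 and 0.19). These medians include Dlx1, Dlx2 and Sp8. For the other 4 listed genes they were 0.014 and 0.042. Of 19 factors of GABAergic neurons of brainstem, spinal cord and retina, 9 were listed in each table and 3 fell in the mutant-labelled group (median -0.83). Of the 3, Prdm13 was listed through its heterozygote value alone, like Slc17a6. Prdm13, a factor of amacrine cells, fell from 2.33 to 0.712 RPKM (authors' deposited table, q = 0.0109) and Barhl2 from 10.6 to 5.07 RPKM (authors' deposited table, q = 0.0109). A transcript of Onecut2, a factor of horizontal cells, fell in this comparison (authors' deposited table, q = 0.0367), and one rose in the knock-in comparison (authors' deposited table, q = 0.0104), the list's one call there (median 0.21). Summed, Onecut2 was at 41.9 and 23.5 RPKM and then at 23.1 and 38.4 RPKM. Of the 9 listed factors, 2, Foxn4 and Prox1, had higher summed levels in the mutant-labelled group, without a call. These 2 were lower in the knock-in comparison, where the other 7 were higher, with a log2 ratio of 0.029 for Ptf1a. Of 8 interneuron peptides and calcium-binding proteins, 3 and 2 were listed and none was called. Among them the peptide gene Sst was at 10.3 and 5.97 RPKM and then at 5.86 and 3.51 RPKM, and Penk at 10.2 and 8.01 RPKM and then at 7.86 and 10.4 RPKM.

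Marker genes checked the tissue. All 10 retinal progenitor markers were listed, with no call in either comparison (medians 0.32 and 0.061). In the mutant-labelled group all 10 had higher summed levels than in the heterozygote, with a sum of 2521 and 3072 RPKM. In the knock-in comparison 6 were higher and 4 lower, with a sum of 3014 and 2956 RPKM. All 12 ganglion cell markers were listed; 7 fell in the mutant-labelled group and their summed level went from 903 to 497 RPKM, beside the falls of Gad2, Sp8 and Slc17a6. In the knock-in comparison 2 of the 12, Pou4f2 and Rbpms, rose and the sum went from 488 to 689 RPKM, beside the fall of Gad2. The part of ganglion cell and progenitor number in these results was not tested. None of 11 forebrain markers (Emx1, Emx2, Tbr1, Eomes, Neurod6, Gsx2, Nkx2-1, Lhx6, Lhx8, Dlx5 and Dlx6) was listed in either table.

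Markers of other tissues moved in the knock-in comparison, in which Gad2 fell. Of 12 pigment epithelium markers 10 were listed and 7 rose, with a summed level of 24.4 and 113 RPKM. Of the 10, 5 had mutant-labelled values under the lower limit of 1.04 RPKM and were listed through the knock-in value alone, among them Tyrp1 and Slc45a2, which are 2 of the 7. Of 12 lens markers 9 were listed and 3 rose, among them Foxe3, listed at 0 in the mutant-labelled group, with a sum of 58.4 and 155 RPKM. Of 8 blood markers 7 were listed and 2 rose, with a sum of 35.1 and 131 RPKM. In the same way Foxe3 and 5 of the 7 blood markers, none of these 5 called, were listed through the knock-in value alone. Of 12 immediate early genes, which respond quickly to handling and stress, 8 were listed and 5 fell, with a sum of 185 and 51.9 RPKM. Of these 8, 4 were listed through the mutant-labelled value alone, among them Fos, Fosb and Egr1, which are 3 of the 5. The counts of these lists are therefore descriptions. In mutant against heterozygote these 4 lists had no calls, with sums of 19.6 and 22.7, 81.3 and 59.1, 30.8 and 34.8, and 163 and 188 RPKM in the same order, and their part in the fall of Gad2 was not tested.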

How the data were processed

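RNA of 9 retina samples was sequenced, 3 per genotype. Per the submitters' processing notes, Bowtie2, Cufflinks and Cuffdiff were used on mm10, with no version named. The authors deposited 1 table per comparison, with an RPKM value per transcript and group, a test statistic (a score, per the file headers), and a p-value and q-value, which the authors adjusted over all rows. No value per sample is in them, so the depth per sample is unknown.

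Log2 ratios were recomputed from RPKM without a pseudocount, and genes were summed over transcripts by symbol (pandas 2.3.3); the 173 and 172 rows without a usable symbol stayed out of gene counts. Calls are the authors', at q of 0.05 or less, tested across all transcripts of a table. At an unadjusted p under 0.05 the tables hold 1415 and 1862 transcripts. The adjustment used for a filtered alternative was tested on simulated data.

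The members and the 15 gene lists were chosen with earlier results of these data known; a few genes are in more than 1 list. Named genes are all members, the called genes of each list (up to 6) or else its 2 most abundant, genes called lower in both tables if 5 or fewer, Neurog2, and the 5 genes most like Gad2 (at least 2 RPKM in heterozygotes, by Euclidean distance of both log2 ratios); some that the rule takes are given only in the counts. Coordinates are the authors' mm10 loci from base 1, or GENCODE where said. All 8 members matched the RefSeq promoter table. One item of the study is not reported here.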

Additional observations from a re-analysis of the deposited data

How the results depend on the processing

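With an unadjusted p under 0.05 in place of q, 5 members were called in mutant against heterozygote, adding Dlx1 and Dlx2, and 2 in knock-in against mutant, adding Dlx2 as higher. At that threshold 6.2% of all listed genes were lower and 4.85% higher in the first comparison, and 6.46% and 8.56% in the second. A q of 0.1 gave the reported 3 and 1. Among transcripts of at least 2 RPKM, adjusted anew, the counts were 2 and 1; Slc17a6 was not among those tested, since its higher value is 1.98 RPKM. Log2 ratios were recomputed 40 times (pseudocounts of 0.5 and 1 RPKM, the most abundant transcript, centring on the median gene, rescaling across tables). Of these, 2 moved by over 1.5 times: Slc17a6, -0.80 with a pseudocount of 1 RPKM, and Dlx2 across tables, 0.031 when rescaled. None reversed, but a pseudocount added to both groups cannot change a sign. For a gene with 1 listed transcript, the most abundant transcript is the sum. The medians used for centring were only 0.032 and -0.0021. The absence of reversals is therefore a description and no test of the directions. No replicate could be left out, and No paired analysis was possible because the tables hold 1 value per group and no value per sample. Levels near 1 RPKM are limited by the tables' lower limit.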
